A study of Danio rerio with 31 samples.

Results

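Adult male zebrafish that had themselves received polychlorinated biphenyls (PCBs) together with polybrominated diphenyl ethers (PBDEs) were compared with untreated males of the same generation. The fish were the F0 males of the series, taken by the sex label and by titles that read F0 TREATED or F0 CONTROL. They made up 12 of the 24 fish of the series and 16 of its 31 sequencing runs, because 4 of them were sequenced in 2 runs, which were added together. All 12 were adults of the TU line and the whole brain was taken from each. The 6 treated males were numbers 2, 10, 16, 24, 36 and 38, and the 6 control males were numbers 3, 9, 15, 25, 31 and 33. The labels name no dose, route, duration, tank or family, so a difference of tank or family between the arms cannot be told apart from the exposure. The p-values below measure only the spread between these fish. The series also holds unexposed F2 descendants, and its question is what the mixture changed in the brain of the exposed generation and of those descendants.

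PCBs and PBDEs are persistent, fat-soluble chlorinated and brominated compounds that accumulate in animals. Planar PCBs bind the aryl hydrocarbon receptor, which then switches on CYP1 oxidases, the repressor of the receptor and the ribosylase gene tiparp. Other congeners and their hydroxylated products act on thyroid hormone transport, on ryanodine receptor calcium release and on transmitter systems of the brain. A whole brain mixes neurons, radial glia, oligodendrocytes and other cells, and in such bulk RNA fewer cells of a type and less RNA per cell cannot be told apart.

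Neuron and radial glia markers matched the brain label in all 12 fish, while photoreceptor, pineal and pituitary markers differed between fish. Summed neuron markers stood at 8206 to 8638 CPM (counts scaled to library size) in treated males and 7711 to 8697 CPM in control males, and of 12 tested 3 were called higher and 1 lower. Radial glia markers stood at 6116 to 8063 CPM against 5109 to 6704 CPM, and 2 of the 11 tested were called higher, where 6.32% of all tested genes were called higher and 5.09% lower. Genes of photoreceptors stood near 0 in control males 9 and 33, at 12.3 and 9.18 CPM in sum, against 296 to 643 CPM in the other 10 fish, with pineal genes low in the same males. Pituitary markers summed to 5.30 and 9.70 CPM in these males, against 13.4 to 23.0 CPM in the other control males and 16.4 to 29.5 CPM in treated males. Of 16 photoreceptor markers tested none was called in edgeR, 1 had an unadjusted p under 0.05 and DESeq2 called 1. Gene counts summed to 16.4 to 34.1 M reads per fish. Treated male 16 lay apart on the first principal component, which carried 32.9% of the variance, and control males 9 and 33 lay farthest the other way. Of the uniquely aligned reads, 18.4 ± 1.04% fell outside genes in treated males against 20.6 ± 0.591% in control males (mean ± SD, n = 6 each), with no overlap. An exact permutation test, two-sided, gave p = 0.00216, or 0.0152 adjusted over 7 library measures. This share and the arm have a squared correlation of 0.667, so both cannot be told apart in full, and results are given below with and without it in the fit.

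In the fit of all fish, small changes between the brains of treated and control males were called in very many genes. Of 18057 genes tested, 2060 were called at an adjusted p under 0.05, which is 11.4% of those tested, with 1141 higher (6.32%) and 919 lower (5.09%) in treated males. Here and below a call is edgeR's quasi-likelihood test with Benjamini-Hochberg adjustment over all genes tested, and a log2 change is treated over control with its standard error (SE). The median size of a called change was 0.49 on the log2 scale. Changes beyond 2-fold were nearly all falls: 222 called genes fell by more than that and 3 rose by more than that. The 3 were sertad2a (1.05) and the structural RNAs rn7sl1 (1.15) and rn7sk (1.05), neither of which carries a poly(A) tail. All 6 treated males lay on the same side of the control mean in 1948 of the 2060. These genes were picked by a test on the same fish, so this count is no separate evidence, and the share over all tested genes was not computed. The arms did not overlap in 1013 of all tested genes (5.61%), 839 of them called. The number of calls depended on the fit. No gene was called with the share of reads outside genes in the fit. Only 42 were called without treated male 16 and control males 9 and 33.

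With all 12 fish the direction of the calls followed the level of the gene. When the tested genes were ranked by mean level into 5 groups of equal size, the lowest group, with a median of 1.07 CPM, held 34 calls, every one of them lower. The next groups held 15 higher and 165 lower calls, then 83 and 238, then 266 and 268. The highest group, with a median of 106 CPM, held 777 higher and 214 lower calls, or 27.4% of its genes. Without treated male 16 and control males 9 and 33 the highest group held 11 higher and 14 lower calls, and its median log2 change was 0.11 against −0.16 in the lowest group. With all fish, median log2 changes over all genes of a group rose from −0.20 in the lowest to 0.15 in the highest. The median SE fell from 0.59 to 0.10 over the same groups, so that only large changes could be called among the scarce genes. With the share of reads outside genes in the fit the medians of the 5 groups were 0.07, 0.01, 0.02, 0.03 and 0.05, the highest of them in the lowest group. Among 1256 tested genes under 1 CPM in both arms, 1 was called, ENSDARG00000098566 of provisional name, and it fell.

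**Figure D1:**
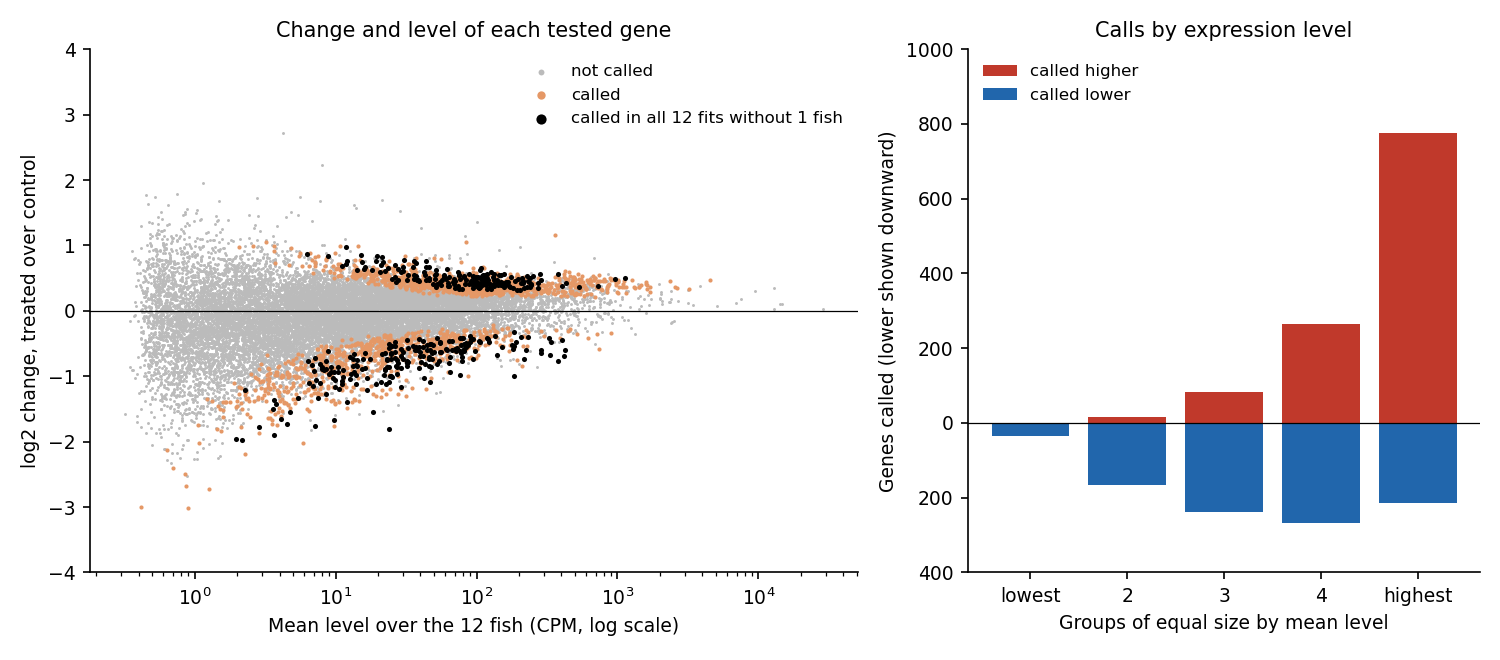
Left, the log2 change of each of 18057 tested genes against its mean level in CPM on a log axis, with called genes in orange and those called in each of 12 fits without 1 fish in black. Right, the number of genes called higher (red) and lower (blue) in 5 groups of equal size by mean level: the lowest group held 0 higher and 34 lower, the highest 777 higher and 214 lower.

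Stability over single fish was read by leaving out each of the 12 males in turn and testing all genes again. Of the 2060 called genes, 391 were called in each of the 12 fits, which is 2.17% of the genes tested and 19.0% of the calls. Of these stable genes 185 rose and 206 fell, and the arms did not overlap in 306. Each of the 391 was also called by DESeq2 and by limma's voom with sample quality weights. Of all 2060 called genes, 2045 were called by DESeq2 and 2019 by voom. Each of the 391 kept its sign without treated male 16 and control males 9 and 33, as did all 2060. Of the 391, 36 were still called then, of 42 calls in all (0.227%). Each of the 391 also kept its sign with the share of reads outside genes in the fit, against 81.3% of all called genes. No gene was called in that fit, while 1027 genes had an unadjusted p under 0.05. The median stable gene kept 0.49 of its log2 change there and the median called gene 0.30. All these genes were picked for their p in the same fish, so the counts of kept signs are no test of direction.

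The stable genes given first, 12 falls and 11 rises, were named for having the lowest p in their direction. The gene srrm4 (ENSDARG00000086327), whose product directs the inclusion of neuronal microexons, stood at 47.9, 65.4 and 79.3 CPM in the lowest, median and highest control male and at 24.4, 27.4 and 37.5 CPM in treated males. It fell by 1.09 on the log2 scale (SE 0.14, adjusted p = 0.015), and every treated male lay below every control male. GAD2 (ENSDARG00000015537), for an enzyme of GABA synthesis, stood at 391, 468 and 546 CPM in control males and at 229.8, 276 and 370.2 CPM in treated males. Its log2 change was −0.77 (SE 0.11, adjusted p = 0.015), and the arms again did not overlap. Both genes kept their direction with the share of reads outside genes in the fit, at −0.59 for srrm4 and −0.43 for GAD2, where neither was called.

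A pair of rhythm genes of the basic leucine zipper class fell. The activator tefa (ENSDARG00000039117), which drives D-box genes late in the daily cycle, stood at 142, 166 and 199.9 CPM in control males and at 90.7, 105 and 124 CPM in treated males (log2 change −0.68, SE 0.10, adjusted p = 0.015). Its competitor at the D-box, the repressor nfil3-6 (ENSDARG00000087188), stood at 20.2, 37.6 and 49.6 CPM against 5.51, 10.4 and 17.1 CPM. Its log2 change of −1.81 (SE 0.29, adjusted p = 0.015) was the deepest of these 23 genes. Neither gene overlapped between the arms. The labels give no hour of dissection, and a difference of hour between the arms was not tested.

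Both regulatory subunits of phosphoinositide 3-kinase among the named genes fell. These subunits hold the lipid kinase at growth factor receptors. PIK3R1 (ENSDARG00000038524) stood at 86.9, 126 and 139 CPM in control males and at 62.7, 70.6 and 80.4 CPM in treated males (log2 change −0.73, SE 0.11, adjusted p = 0.015). PIK3R3 (ENSDARG00000034409) went from 115, 124 and 129 CPM to 77.5, 86.3 and 104 CPM (log2 change −0.48, SE 0.08, adjusted p = 0.015). The highest treated male lay below the lowest control male in both.

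The other falls of lowest p were in OPA1, AHCTF1, ELMOD1, CHD5, MCF2L and NHS. OPA1, which fuses the inner mitochondrial membrane, fell by 0.77 on the log2 scale, from 52.9, 68.5 and 85.7 CPM to 37.5, 38.6 and 48.8 CPM. AHCTF1, a nucleoporin that starts nuclear pore assembly on chromatin, fell by 1.12, from 19.3, 25.8 and 37.9 CPM to 9.48, 12.3 and 14.96 CPM. ELMOD1, an activator of ARF-type GTPases, fell by 0.70, from 433, 523 and 565 CPM to 225, 318 and 387 CPM. None of the 3 overlapped between the arms. CHD5, a chromatin remodelling ATPase enriched in neurons, fell by 0.51 without overlap. MCF2L, a guanine nucleotide exchange factor, fell by 1.03. NHS, a regulator of actin named for the human Nance-Horan syndrome, had a log2 change of −1.001. In these last 2 genes the highest treated male lay just above the lowest control male, and each shares its symbol with a second gene ID.

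The stable rises of lowest p ran from 0.41 to 0.84 on the log2 scale. SLC35F4, a member of a solute carrier family, stood at 12.2, 13.9 and 15.6 CPM in the lowest, median and highest control male and at 19.4, 25.0 and 31.8 CPM in treated males (log2 change 0.84, SE 0.13, adjusted p = 0.015). SIK3, a salt-inducible kinase known for setting sleep need in mice, rose by 0.55, from 104, 115 and 130.0 CPM to 136, 170.3 and 195.5 CPM. Each of the 6 treated males lay above each control male in both genes.

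Transcription factors among the stable rises were HES1, june and BARHL1. HES1, a repressor that carries Notch signals and is known from radial glia, stood at 57.9, 63.6 and 69.5 CPM in control males and at 78.2, 88.1 and 105 CPM in treated males (log2 change 0.49, SE 0.08, adjusted p = 0.015). A gene of the Jun family, june, rose by 0.55, from 26.4, 28.4 and 34.1 CPM to 39.0, 41.4 and 49.1 CPM, and the homeobox gene BARHL1 rose by 0.56. None of them overlapped between the arms. Summed radial glia markers ran higher in treated males with overlapping arms, as given above, and their part in the rise of HES1 was not tested. ACTR8, a subunit of the INO80 chromatin remodelling complex, rose by 0.78. CLCN4, an endosomal chloride and proton exchanger, rose by 0.48, PRRC2B, an RNA-binding protein, by 0.57, and phactr4b, which binds actin and protein phosphatase 1, by 0.41. CDR2L, a cerebellar antigen of human autoimmune disease, rose by 0.42 and hapstr1b, of a stress response family, by 0.44. Of these 23 stable genes, HES1 and phactr4b were those whose change was not smaller with the share of reads outside genes in the fit, at 0.50 and 0.51, although neither was called there.

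**Figure D2:**
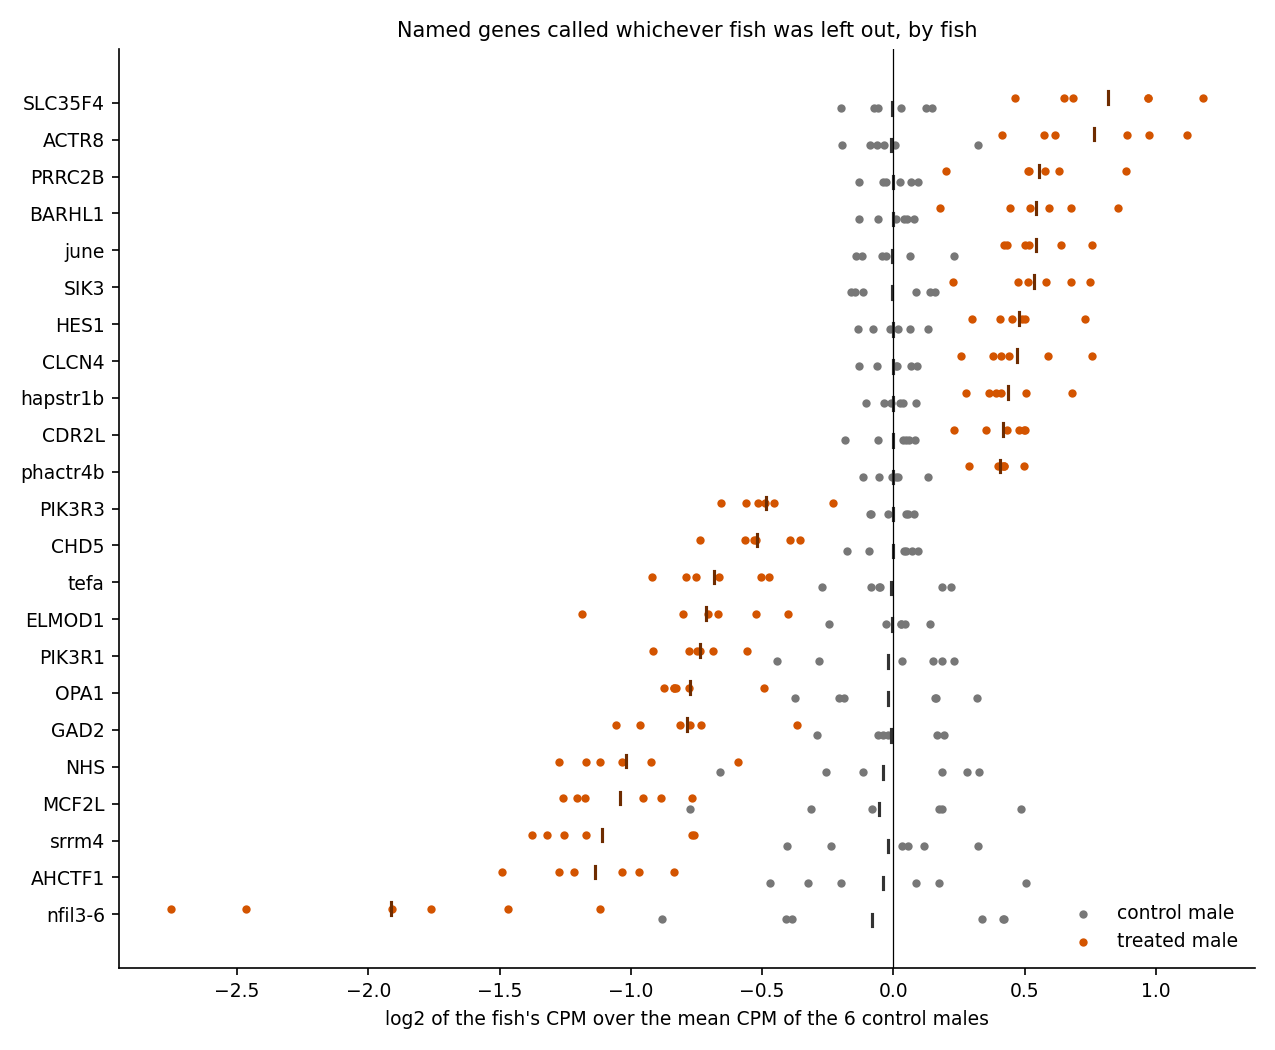
Each point is 1 male; the x axis is the log2 of its CPM over the mean CPM of the 6 control males, with control males in grey, treated males in orange and arm means as bars, for the 23 genes of lowest p in their direction that were called whichever fish was left out. In 21 of the 23 the arms do not overlap; MCF2L and NHS are the exceptions.

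Calls among chromatin genes ran in both directions. Among 52 tested lysine methyltransferases and demethylases, which write and erase histone methyl marks, 6 rose and 5 fell, and among 46 ATPases and BAF subunits of chromatin remodelling 6 rose and 7 fell, against 11.4% called over all genes. These 2 families were put together after their values were seen. Of their 24 calls 12 were stable, against 19.0% of all calls. Histone and zinc finger genes, left out of this pool, held 1 and 2 stable calls. Of the 98 tested genes of the pool 35 had a positive log2 change, and 73 did with the share of reads outside genes in the fit. The gene chd4b, for the motor of the NuRD repressor complex, stood at 78.7, 95.5 and 131 CPM in control males and at 43.7, 58.1 and 73.7 CPM in treated males, and fell by 0.77 on the log2 scale (SE 0.13, adjusted p = 0.015). ARID2, a subunit of the PBAF remodeller, moved the other way, from 56.7, 59.5 and 71.6 CPM to 77.4, 85.1 and 119 CPM (log2 change 0.56, SE 0.10, adjusted p = 0.015). The arms did not overlap in either gene. NSD3, a histone methyltransferase, fell by 1.08, SETD5, of the SET domain family, fell by 0.74, and the demethylase KDM5B, 1 of 2 IDs with its symbol, rose by 0.31. The histone variant gene h3f3a rose by 0.53, and 5 of 12 tested histone genes rose with none lower. Most histone messages, though not those of variants such as h3f3a, carry no poly(A) tail, while an mRNA kit was used for the libraries. Zinc finger genes of the ZNF, ZBTB and ZFP symbols held 3 rises and 15 falls among 195 tested, or 9.23% called against 11.4% over all genes. Over all tested genes 6.32% were called higher and 5.09% lower. Among the 15 falls were znf280d (−0.53) and znf638 (−0.62). The median log2 change of the 195 was −0.25, at a median level of 8.49 CPM in control males. With the share of reads outside genes in the fit that median was 0.05, and the median of the 12 histone genes went from 0.46 to −0.11.

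Genes of the cytosolic ribosome and of the respiratory chain and ATP synthase were called higher and none lower, and no such call was stable. Cytosolic ribosomal proteins held 26 rises and 0 falls among 78 tested, complex I 12 and 0 of 37, complexes II to IV 10 and 0 of 35 and ATP synthase 11 and 0 of 20, against 6.32% higher over all genes. Mitochondrial ribosomal proteins held 6 and 0 of 75, or 8.0% called against 11.4% over all genes. These 5 families were put together after their values were seen. Of their 245 tested genes 227 had a positive log2 change, 65 were called and 1 was stable, MRPS2 of the small mitochondrial ribosomal subunit (log2 change 0.54). With the share of reads outside genes in the fit 26 of the 245 were positive. RPL15, of the large cytosolic subunit, stood at 293.7, 329.6 and 409.9 CPM in control males and at 358, 472 and 750.3 CPM in treated males (log2 change 0.57, SE 0.15, adjusted p = 0.0281). ATP5F1D, of the ATP synthase stalk, stood at 125, 137 and 166 CPM against 146, 199.8 and 315 CPM (log2 change 0.57, SE 0.15, adjusted p = 0.0287). The arms overlapped in both, and their log2 changes were −0.06 and −0.08 with that share in the fit. Other families of protein synthesis had calls in both directions, with 11 rises and 3 falls among 81 translation factors and 3 and 2 among 36 tRNA synthetases.

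Over all tested genes 6.32% were called higher and 5.09% lower. Proteasome subunits, which degrade tagged proteins, held 14 rises and 0 falls among 54 tested. Of these PSMD1, a scaffold of the regulatory cap, stood at 124, 134 and 155 CPM in control males and at 161, 187 and 233.8 CPM in treated males, a log2 change of 0.45 (SE 0.09, adjusted p = 0.0158). PSMD2, its partner in the cap and 1 of 2 IDs with that symbol, rose by 0.52. Both were stable and did not overlap between the arms. With the share of reads outside genes in the fit the log2 changes of PSMD1 and PSMD2 were 0.09 and 0.11. The vacuolar proton pump, which acidifies synaptic vesicles and lysosomes, held 8 rises and 1 fall among 26. Coatomer, SEC and TRAPP genes of the secretory pathway held 13 and 0 among 57, with SEC24A at 0.71 and TRAPPC10 at 0.43. Tubulins held 5 and 0 among 17 and actins with their nucleators 7 and 0 among 26, with ARPC5L of the Arp2/3 complex at 0.64, 1 of 2 IDs with its symbol. These 7 include ACTR8, which matched by symbol and, as given above, belongs to a chromatin remodelling complex. Core proteins of the spliceosome held 9 and 0 among 35, with SNRPB at 0.56 and LSM6 at 0.59. Ubiquitin conjugating enzymes held 8 and 1 among 42. Other families of protein turnover had calls in both directions, with 3 rises and 4 falls among 45 ubiquitin specific peptidases and 9 and 4 among 122 TRIM and RNF ligases. In these last 2 families 15.6% and 10.7% were called, against 11.4% over all genes. UBE2K, 1 of 2 IDs with its symbol, rose by 0.49 and was not called without 1 of the 12 fish. DESeq2 called 1 gene lower in each of the proteasome, spliceosome and secretory families and 2 in the mitochondrial ribosome. With the share of reads outside genes in the fit, the median log2 change of the proteasome went from 0.24 to −0.01. That fit took the spliceosome from 0.29 to −0.05, tubulins from 0.36 to −0.07 and actins from 0.28 to −0.03. Ubiquitin conjugating enzymes went from 0.21 to −0.02, the proton pump from 0.22 to 0.02 and the secretory genes from 0.18 to 0.04.

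The most abundant genes that rose were actb2 of the actin cytoskeleton, the glycolytic enzyme ALDOC, the mitochondrial ADP and ATP carrier SLC25A5, the elongation factor eef1a1l1, the actin-binding tmsb4x and the amyloid precursor APP. The most abundant, actb2, stood at 3417, 3744 and 4230 CPM in control males and at 4025, 4943 and 7072 CPM in treated males (log2 change 0.47, SE 0.12, adjusted p = 0.0249). Fish of both arms overlapped, and the call was kept in 7 of the 12 fits without 1 fish. Its log2 change was 0.01 with the share of reads outside genes in the fit, and those of ALDOC, SLC25A5 and tmsb4x turned to −0.06, −0.08 and −0.14. APP rose by 0.29 without overlap and was kept in 7 of the 12 fits. The most abundant falls were in NDRG4 (−0.34), APLP1 (−0.59), the growth-associated tubulin binder STMN1 (−0.35), the vesicle proteins SV2A (−0.41) and SYT11 (−0.35), and NAT16 (−0.28). APLP1, a relative of the amyloid precursor, stood at 763, 928 and 997 CPM in control males and at 336, 607 and 748 CPM in treated males, without overlap. With that share in the fit APLP1 stood at 0.02 and SYT11 at 0.02. ALDOC, STMN1, SYT11 and NAT16 each share their symbol with a second ID.

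**Figure D3:**
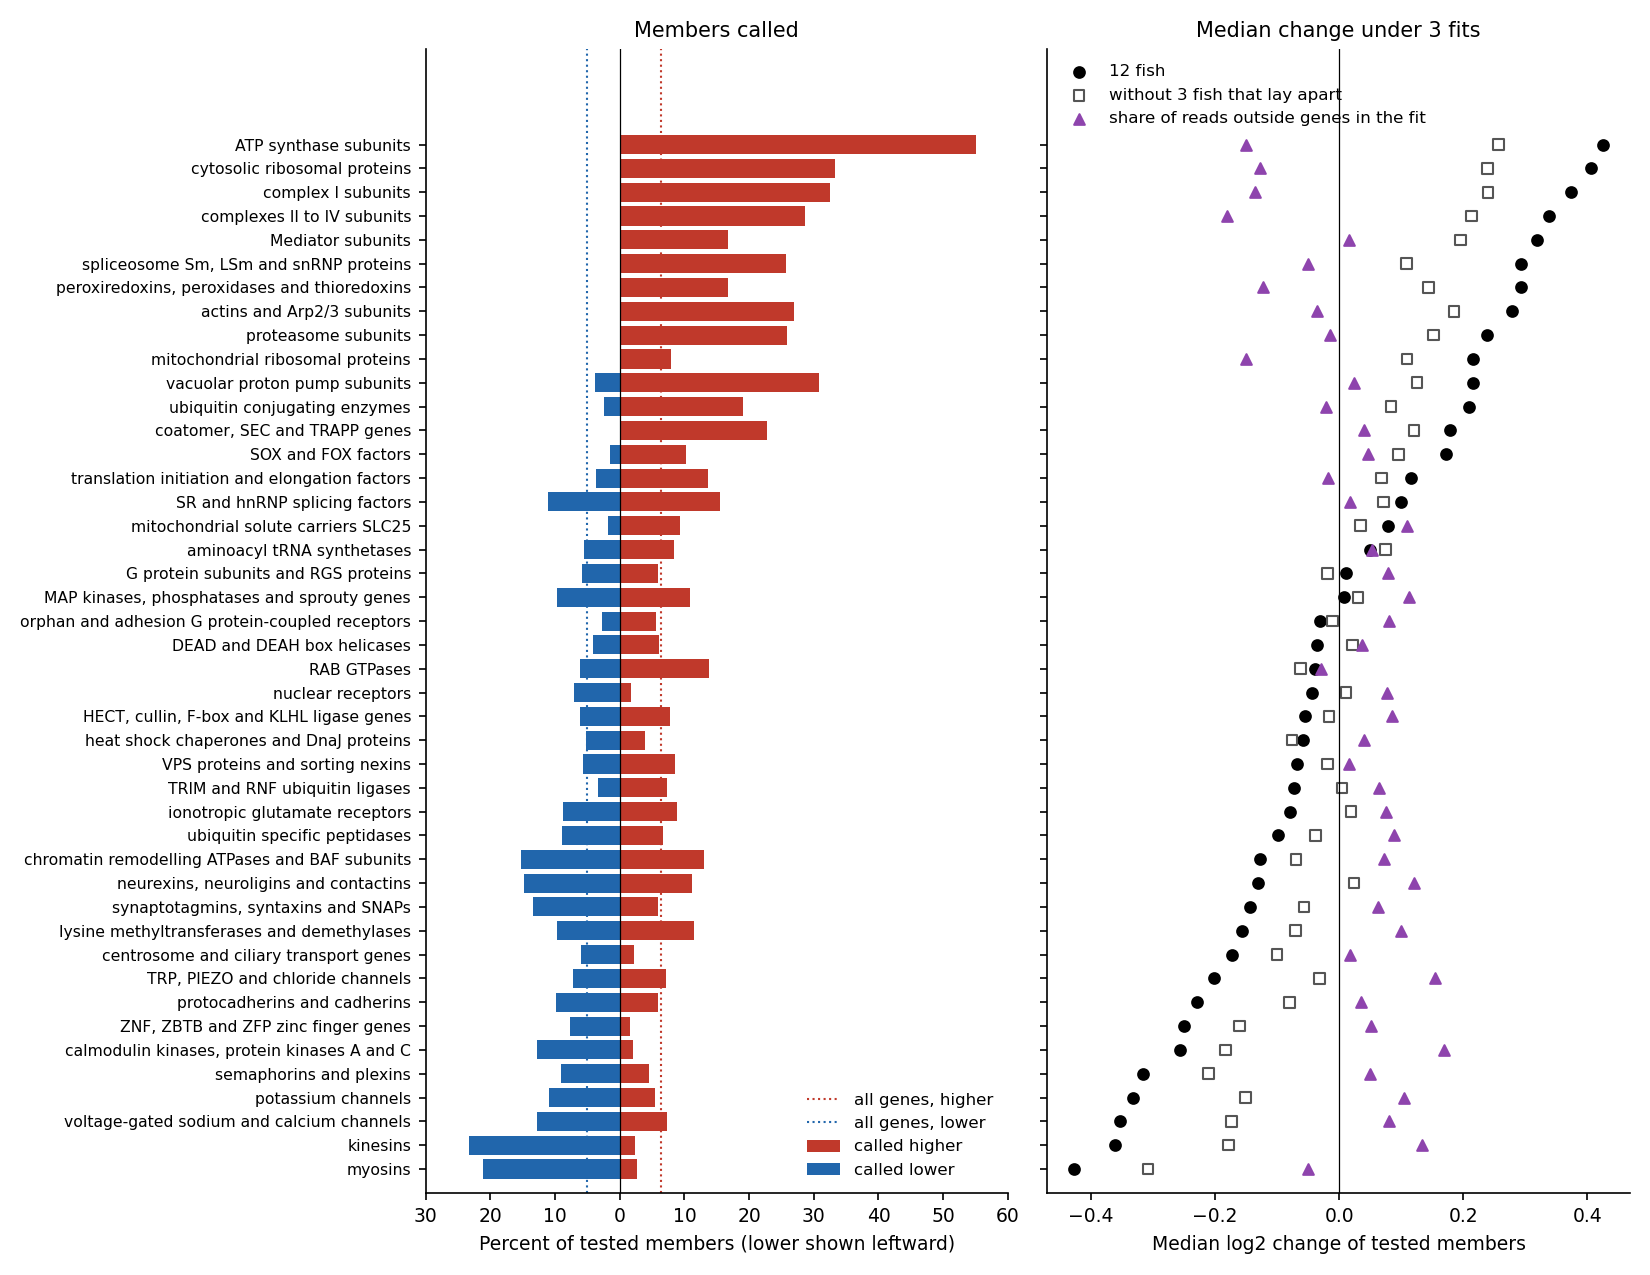
Left, the percent of tested members called higher (red) and lower (blue) in the 44 families with at least 20 tested and 5 called members, with dotted lines at the values over all genes (6.32% and 5.09%). Right, the median log2 change of each family with all 12 fish (black), without treated male 16 and control males 9 and 33 (open squares) and with the share of reads outside genes in the fit (triangles): in the last fit 11 of the 20 positive and 22 of the 24 negative medians lay on the other side of 0.

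In edgeR's calls kinesins and myosins held more falls than rises, and dyneins did not. Kinesins, which carry cargo outward along microtubules, held 1 rise and 10 falls among 43 tested, and myosins, the actin motors, 1 and 8 among 38, where 5.09% of all tested genes fell. Dyneins, the inward motors, held 1 rise and 0 falls among 38, at a median level of 5.21 CPM in control males. Of these 38 genes 12 had a positive log2 change, with a median of −0.13, and DESeq2 called 1 higher and 2 lower. KIF1A, the carrier of synaptic vesicle precursors, stood at 156, 253 and 324 CPM in control males and at 91.0, 121 and 169 CPM in treated males, a log2 change of −1.001 (SE 0.18, adjusted p = 0.015). KIF1B fell by 0.59, from 412, 521 and 607 CPM to 233, 345 and 431 CPM. The arms overlapped by their nearest fish in both. KIF3A, a motor subunit that also serves cilia, fell by 0.49 without overlap. All 3 were stable. Among myosins, MYO18A (−0.81, 1 of 2 IDs) fell, and none of the called myosins was stable.

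Of 3 families of ion channel symbols 2 held more falls than rises in edgeR's calls. Potassium channels held 5 rises and 10 falls among 92 tested, and voltage-gated sodium and calcium channels 4 and 7 among 55, or 16.3% and 20% called against 11.4% over all genes. TRP, PIEZO and chloride channels held 3 rises and 3 falls among 42. Of these 42 genes 15 had a positive log2 change, with a median of −0.20, and DESeq2 called 3 higher and 8 lower. Members were taken by symbol, and not all are channels. The rises hold CACNG2, which traffics AMPA receptors, among sodium and calcium channels. They hold the exchanger CLCN4 among TRP, PIEZO and chloride channels. CACNA1C, the pore of an L-type calcium channel, stood at 31.9, 35.4 and 50 CPM in control males and at 12.7, 21.6 and 25.7 CPM in treated males (log2 change −0.87, SE 0.18, adjusted p = 0.0155). TRPM3, a heat-sensitive cation channel of the last family, fell by 1.12, from 11.1, 14.5 and 22.3 CPM to 4.58, 6.67 and 9.99 CPM. The arms did not overlap in either. KCNH4 (−0.84) and KCNA1 (−1.11), voltage-gated potassium channels, fell, and the modulatory subunit KCNF1 rose by 0.47. KCNH4, KCNA1 and KCNF1 are each 1 of 2 IDs with their symbol. The 4 families of potassium channels, sodium and calcium channels, kinesins and myosins, also put together after their values were seen, held 11 rises and 35 falls, of which 11 were stable. Of their 228 tested genes 64 had a positive log2 change, and 129 did with the share of reads outside genes in the fit.

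Release machinery, guidance and kinase families held calls in both directions. Synaptotagmins, syntaxins and SNAPs, which drive vesicle fusion, held 4 rises and 9 falls among 67 tested, or 19.4% called against 11.4% over all genes. STX12 of endosomes (−0.70) and NAPB, which recycles fusion complexes (−0.996), fell, each 1 of 2 IDs. GABA and glycine receptors held 0 rises and 4 falls among 29, or 13.8% called, and none of the 4 was stable. Semaphorins and plexins, which steer axons, held 2 and 4 among 44, or 13.6% called, with sema4ab at −0.86 and SEMA6A at 0.66. Both were stable. The guidance receptor ROBO1 rose by 0.43. MAP kinases and their regulators held 9 rises and 8 falls among 83, against 11.4% called over all genes. In this family MAP4K4 went from 159, 187 and 202 CPM to 215, 252 and 264 CPM (log2 change 0.45, SE 0.08, adjusted p = 0.015). MAPK3, the kinase ERK1, rose by 0.44, and MAPK8IP1, a scaffold of JNK signalling and 1 of 2 IDs, fell by 0.59. Both MAP4K4 and MAPK3 were still called without the 3 fish that lay apart (adjusted p = 0.0498 for each).

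Single members of other families are named here. The initiation factor EIF3A fell by 0.56, 1 of the 3 falls among translation factors. YARS1 (−0.66) and CARS1 (−0.73), which charge transfer RNA with tyrosine and cysteine, were the 2 falls among the synthetases. The neuronal co-chaperone DNAJC6, which uncoats clathrin vesicles, fell by 0.61, and the mitochondrial HSPA9 by 0.54. Chaperones held 3 rises and 4 falls among 77 tested, or 9.09% called against 11.4% over all genes. Ubiquitin ligase genes of the HECT, cullin, F-box and KLHL kinds held 9 rises and 7 falls among 115, or 13.9% called. Of these calls 8 were stable. FBXW11 (0.50) and FBXW7 (0.37) rose and HECW2 (−0.42) fell. SOX2, a stem cell factor of radial glia, rose by 0.48, and FOXK2, 1 of 2 IDs, by 0.52. SOX and FOX genes held 7 rises and 1 fall among 68, or 11.8% called. The integrin subunit ITGA1 fell by 1.51 at a low level, from 4.12, 5.46 and 6.39 CPM to 0.948, 1.64 and 3.25 CPM. The splicing factor hnrnpr rose by 0.50 and the calcium pump atp2b3b fell by 0.65. The kinase subunit prkacbb fell by 0.53, and the centrosome genes cep170ab and CEP85L fell by 1.02 and 0.94. All genes named in this account of single members were stable.

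Of the genes that handle foreign compounds, none of 52 tested cytochrome P450 genes, with a median level of 1.53 CPM in control males, was called in edgeR, 5 had an unadjusted p under 0.05, and DESeq2 called 1 higher and 1 lower. In the lowest group by level 0.941% of all genes were called. Of 42 glutathione, sulfo and glucuronosyl transferases 1 fell, the brain sulfotransferase SULT4A1 (−0.52, called in 4 of the 12 fits), whose log2 change was 0.09 with the share of reads outside genes in the fit. Peroxiredoxins, peroxidases and thioredoxins, which remove peroxides, held 6 rises and 0 falls among 36, or 16.7% called against 11.4% over all genes, none of them stable. The median log2 change of these 36 genes went from 0.29 to −0.12 with the share of reads outside genes in the fit. The marker of receptor activation CYP1A1 held 48 reads over the 6 treated males and 40 over the 6 control males, at 0 to 20 and 0 to 15 reads per fish, which is too few to test. CYP1B1 stood at 2.61, 3.83 and 7.03 CPM in treated males and at 3.99, 5.60 and 9.01 CPM in control males, and cyp1c1 at 0.372, 0.743 and 1.30 CPM against 0.511, 1.28 and 1.74 CPM. Their log2 changes of −0.45 (SE 0.27, adjusted p = 0.282) and −0.54 (SE 0.47, adjusted p = 0.481) did not pass. The receptor gene ahr2 (−0.50, SE 0.18, adjusted p = 0.0785) and tiparp (0.39, SE 0.13, adjusted p = 0.0607) did not pass either, with overlapping arms. Of CYP1B1, cyp1c1, ahr2 and tiparp, none of them called in edgeR, DESeq2 called 2. The receptor repressors ahrra and ahrrb held 65 and 1 reads over treated males and 47 and 6 over control males, and were not tested. None of 60 tested receptors for acetylcholine, dopamine, serotonin and noradrenaline was called in edgeR, 10 had an unadjusted p under 0.05, and DESeq2 called 1 higher and 3 lower. Their median level was 4.39 CPM in control males. In the group next to the lowest by level, with a median of 3.93 CPM, 4.985% of all genes were called. None of the 13 messages of the mitochondrial genome was called in edgeR, 2 had an unadjusted p under 0.05, and DESeq2 called 1 in each direction.

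Zebrafish keep many gene copies from an ancient genome duplication, and the copies were compared with each other. Among 1734 pairs of tested genes that share a symbol or differ by a final a or b, both copies were called in 47 and a single copy in 378. Over all tested genes 11.4% were called, and the counts of pairs that this share alone would give were not computed. Both copies moved the same way in 39 of the 47, and over all pairs 61.8% had the same sign. Both copies were stable in the pairs of CACNG2 and JAM3. The CACNG2 copies, which traffic AMPA receptors, rose by 0.42 and 0.49. The JAM3 copies, junction adhesion molecules, fell by 0.74 and 0.51. Opposite calls were seen in 8 pairs, among them G3BP2, LRFN2, PDPK1, PPP2CA, PPP3R1, RAB5A and RAC3. One copy of the phosphatase catalytic subunit PPP2CA rose by 0.43 and the other had a log2 change of −1.03. For the calcineurin regulatory subunit PPP3R1 the values were 0.28 and −1.36. Where copies are nearly identical, the counting may have lost reads or shared them out, and these pairs were picked for their calls.

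How many genes were called turned on which fish was left out. The count ran from 440 without control male 33 to 3217 without treated male 2. It was 515 with treated male 24 left out. For control males 9, 25 and 31 it was 615, 748 and 807 genes in turn. Between 1198 and 2047 genes were called without each of the other 6 fish, and 913 of the 2060 genes lost the call in 7 or more of the 12 fits. At least 2058 of the 2060 genes kept their sign in each of the 12 fits. These genes were picked in the same fish, and each fit holds all but 1 of them, so this count is no test of direction. With the share of reads outside genes in the fit 1674 of the 2060 kept their sign. OSBPL8, a lipid transfer protein, stood at 2.44, 3.02 and 4.72 CPM in control males and at 0.261, 0.887 and 1.90 CPM in treated males (log2 change −1.77, SE 0.42, adjusted p = 0.022). It lost the call only without treated male 24, as did AACS (−1.44), which activates acetoacetate. The chromatin organiser satb1a (−1.64) and the amyloid precursor binder apbb1 (−1.38) lost it only without control male 33.

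Each fish was then placed on the scale of the others, from the genes called without it. A fish counts as on its own arm's side of a gene when its log2 level lies nearer to the mean of the rest of its arm than to that of the other arm. Treated males 24 and 16 lay on the treated side in 96.7% and 96.2% of the genes called without them, and control male 33 lay on the control side in 94.6%. Treated male 2 lay on the treated side in 32.3%, below the 41.7% it reached over all tested genes, so in most of these genes it was nearer to the control males. The other 8 fish lay between 59.9% and 92.7%, each above its own value over all genes. Treated male 2 had the highest share of reads outside genes among treated males, 19.5%, and treated male 16 the lowest, 16.6%. Treated male 16 overshot, with a median position of 2.03 where 0 is the control mean and 1 the mean of the other treated males. The median within-arm SD of log2 CPM was 0.36 in treated males and 0.29 in control males, and 63.9% of tested genes had the larger SD in treated males. That median was 0.28 in treated males without number 16 and 0.27 in control males without numbers 9 and 33.

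**Figure D4:**
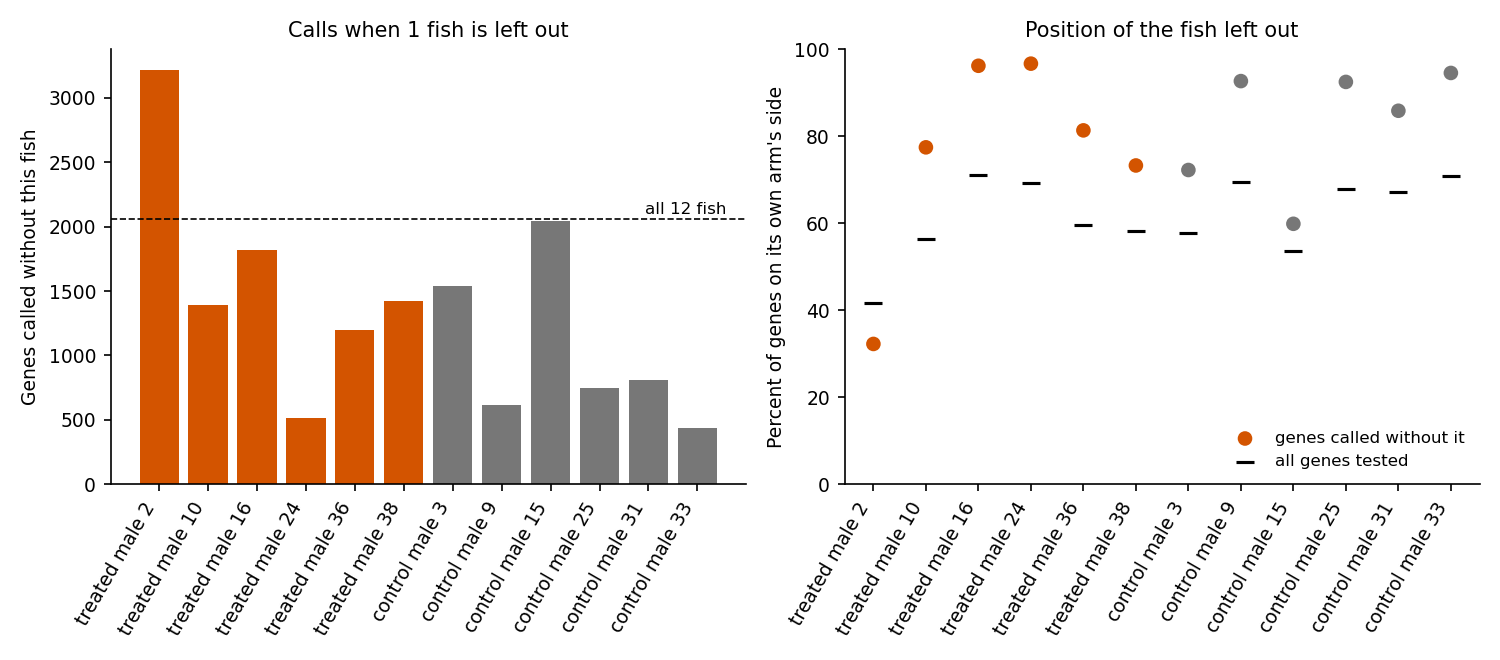
Left, the number of genes called when each fish is left out, with the 2060 of all 12 fish as a dashed line: bars run from 440 (control male 33) to 3217 (treated male 2). Right, the percent of genes in which the fish left out lay on its own arm's side, for the genes called without it (circles; orange treated, grey control) and for all tested genes (dashes): treated male 2 is the single fish below its dash, at 32.3%.

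Females of the unexposed F2 generation, 4 of the treated line and 4 of the control line, share no sample with the F0 males and were set beside them. A fit of all 24 fish was used. Of the 391 stable genes 318 had the same sign in F2 females, or 81.3%, against 70.3% of the 2060 called genes and 56.3% of all tested. At an unadjusted p under 0.05 in F2 females, 149 stable genes moved the same way and 4 the opposite way. The same counts were 402 and 28 over the called genes, and 1623 and 733 over all tested genes. Among the 23 stable genes named for the lowest p, 22 had the same sign, and ACTR8 (−0.07 in F2 females) did not. Of the other 52 named genes that were stable, 12 had the opposite sign, among them TRPM3 (1.04), KCNA1 (0.81), NAPB (0.50), cep170ab (0.49), sema4ab (0.29), FOXK2 (−0.08) and SEMA6A (−0.03). SIK3 stood at 0.54 (SE 0.13), tefa at −0.74 (SE 0.18), hapstr1b at 0.38 (SE 0.10), PIK3R3 at −0.44 (SE 0.12) and GAD2 at −0.45 (SE 0.15) in F2 females, while srrm4 stood at −0.07 (SE 0.22) and OPA1 at −0.06 (SE 0.15). The share of reads outside genes separated the F2 female lines too, at 19.9 ± 0.965% in the treated and 22.6 ± 0.793% in the control line (n = 4 each, exact two-sided permutation p = 0.0286, the smallest such a design allows), and its part in these shared signs was not tested.

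Calls in F2 females were few. In edgeR 3 of 21082 genes (0.0142%) were called in F2 females, fosaa, CASKIN2 and rpgrb. Of these, rpgrb, which relates to a ciliary GTPase regulator of human retinal disease, was also called in F0 males. It stood at 6.69, 9.81 and 12.04 CPM in control and 2.77, 4.60 and 6.41 CPM in treated F0 males (log2 change −1.06, SE 0.23, adjusted p = 0.0177). In F2 females its log2 change was −2.30 (SE 0.37). The effect differed between F0 males and F2 females in 1 gene (0.00474%), CASKIN2, in edgeR's interaction test (adjusted p = 0.0157), and in that test generation and sex cannot be told apart. CASKIN2 stood at 0.511 to 4.22 CPM in treated and 4.69 to 7.47 CPM in control F0 males. It held 0 reads in the 4 treated-line F2 females, against a mean of 1.91 CPM in the control line. That is at least 47.1-fold lower, counted against 3 reads over the 4 libraries, a floor that covers counting error only. In the fit of F0 males alone it was not called.

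**Figure D5:**
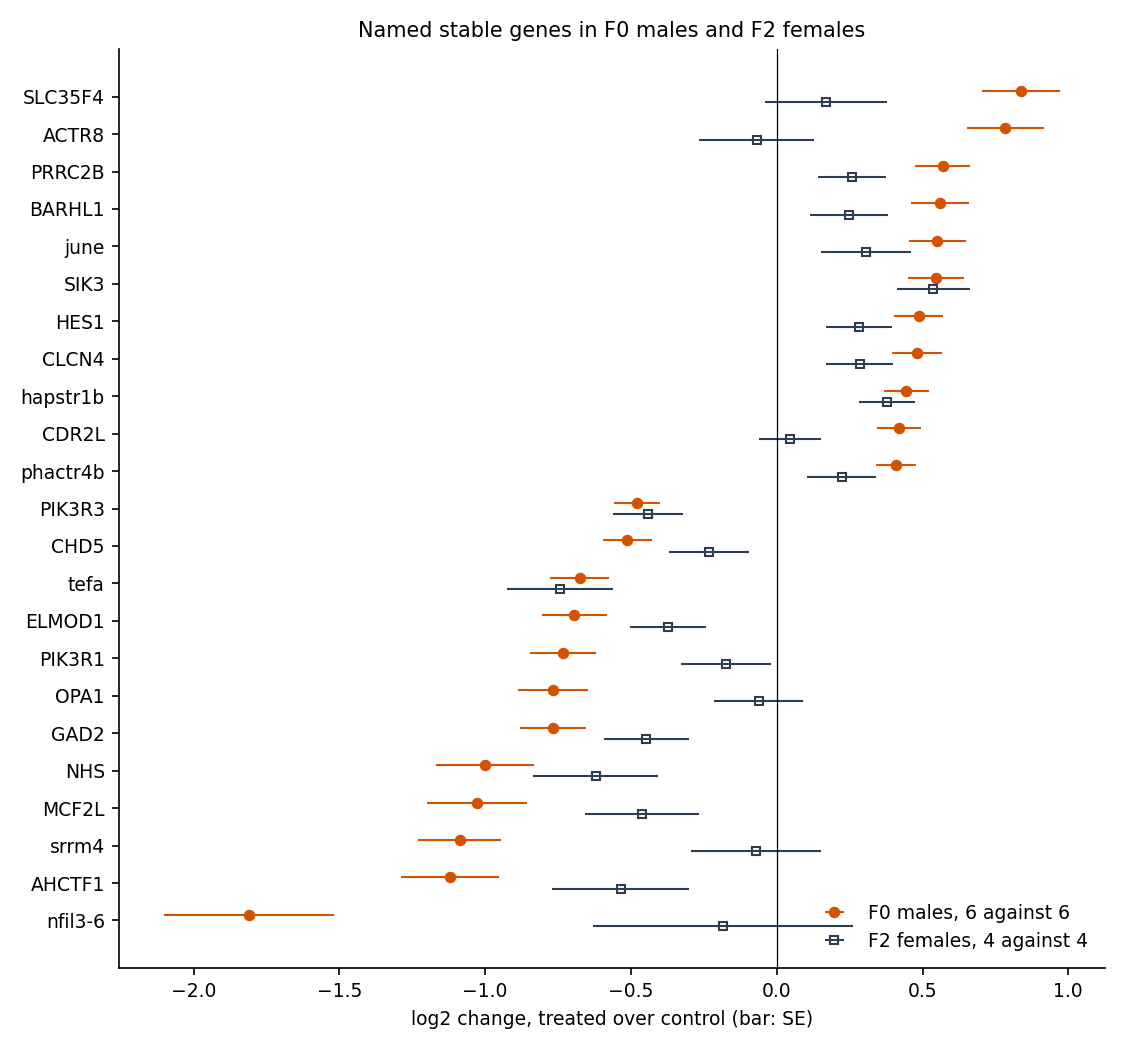
The log2 change, treated over control, with its SE as a bar, for the 23 stable genes named for the lowest p in F0 males (orange circles, 6 against 6) and in unexposed F2 females (open squares, 4 treated line against 4 control line). In 22 of the 23 both lie on the same side of 0; ACTR8 does not.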

How the data were processed

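The deposited values are raw counts of reads per gene from HTSeq, not normalised. The submitters' processing notes name HTSeq 0.11.2, STAR 2.7, cutadapt 2.1, DESeq2 1.24.0 and bcl2fastq, and the build GRCz11 (danRer11). Settings, annotation release and strandedness of the counting were not given in the sources used, which leaves values of overlapping or antisense genes uncertain. Each table held 32520 Ensembl gene IDs, 29201 of them with a symbol in the name table. HTSeq's summary lines belong to no gene and did not enter library sizes: 16.6 to 21.4% of unique alignments lay outside genes, 0.451 to 0.484% were ambiguous, and 5.98 to 13.6% of alignments were not unique.

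Counts were summed over the runs of a fish, whose chi-square per degree of freedom was 1.07 to 1.12, against 18.3 to 115 between fish of an arm. The 12 F0 males were fitted alone with edgeR 4.0.16 under R 4.3.3 (glmQLFit with robust = TRUE, glmQLFTest, TMM, filterByExpr with a minimum count of 10, Benjamini-Hochberg at 0.05). CPM uses TMM library sizes. F2 females entered a fit of 24 fish in 6 groups. Alternatives used DESeq2 1.42.0 and limma 3.58.1, tables and plots Python 3.11.15 with scipy 1.17.1, pandas 2.3.3 and matplotlib 3.10.9, and the fits were tested on simulated data. Families are symbol patterns, some corrected after a first look for symbols that did not belong, and a few such members remain. No gene set was tested.

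Named genes had to be called and have an established symbol. They were the 12 stable genes of lowest p with at least 1 CPM in each direction, the 6 most abundant in each direction, up to 3 members of lowest p per family of at least 8 tested members, up to 5 under 1 CPM in each direction (none had an established symbol), 4 that lost the call without exactly 1 fish, and, whatever their p, 7 genes of the aryl hydrocarbon receptor. Copy pairs, the genes called in F2 females and the rises beyond 2-fold were chosen after their values were seen. The members, lists and rules were chosen with earlier results of these data known. Protein lengths and promoters were not used here, and some genes that meet the rule and 1 family are not reported here. Intervals and floors cover counting error only.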

Additional observations from a re-analysis of the deposited data

Results flagged for a closer look

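A value was singled out where the highest or lowest of 6 fish of an arm lay farther from its neighbour than Dixon's 95% limit allows. Chance does this in about 1 in 20 groups. Of the 226 groups checked 15 were found, 9 of them for treated male 16. Treated male 16 had 29.0% of its gene reads in the 100 most abundant genes, against 24.8 to 26.3% in the other treated males, and 18752 genes detected at equal depth, against 20402 to 21022. It stood high in ALDOC (4699 CPM against 3239 to 3614 in the other treated males), tmsb4x (4211 against 2178 to 2748), NDUFS5 (255 against 139 to 180.2), ube2e2 (166 against 100.2 to 125), UBE2K (74.6 against 48.6 to 51.6), FBXW11 (151.5 against 101 to 115) and ARID2 (119 against 77.4 to 90.8). These are genes called higher in treated males, and without this fish the log2 changes kept their sign.

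Treated male 2 stood high in OPA1 (48.8 CPM against 37.5 to 40.04) and STMN1 (822 against 539 to 641), genes called lower in treated males. Among control males, number 31 stood high in ACTR8 (28.3 CPM against 19.7 to 22.7), number 15 in SNRPB (125 against 84.9 to 98.7), number 3 in ARID2 (71.6 against 56.7 to 62.2) and number 33 in sema4ab (17.2 against 9.78 to 12.01).

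The effect in F0 males differed from that in F2 females in CASKIN2, by 7.46 on the log2 scale in the interaction test. That size depends on the prior count, because the 4 treated-line females held 0 reads, and it is no bound.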

How the results depend on the processing

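No paired analysis was possible because treated and control F0 males share no replicate number. Beside the 2060 genes called (1141 higher, 919 lower), DESeq2 called 3284 (1588 lower), voom with quality weights 3007 (1478 lower) and the fit that holds the outside-gene share as covariate 0, with 1027 at an unadjusted p under 0.05. Without treated male 16 and control males 9 and 33 there were 42 (18 higher, 24 lower). DESeq2's size factors, both other filters, first runs alone and no robust step kept the counts within 1.5 times. Leaving out 1 fish gave 440 to 3217 calls, 211 to 1755 higher and 229 to 1462 lower, and 1 to 2 genes in the interaction.

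Without the 3 fish the arms differed by −1.76 percentage points in the share of reads outside genes (exact permutation test, adjusted p = 0.111), against −2.18 with all. They still did not overlap, at 17.97 to 19.52% in treated and 19.86 to 21.35% in control males. With so few fish a single measure at the smallest exact p cannot pass after adjustment over all the library measures. Leaving out 1 fish gave −2.41 to −1.82 points for that share, 3293952 to 5937724 gene reads, 0.00592 to 0.0119 points for ambiguous reads, 2.02 to 3.29 for reads not unique, −0.521 to 0.0258 for mitochondrial messages, 0.536 to 1.39 for the 100 most abundant genes and −569.7 to −63.1 genes detected.

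With the covariate 92 of the 106 genes examined lost the call with their sign kept, 11 changed sign, to −0.0555 for ALDOC, −0.0826 for SLC25A5, −0.141 for tmsb4x, 0.0201 for APLP1, 0.0242 for SYT11, −0.056 for RPL15, −0.0448 for NDUFS5, −0.0239 for ATP5F1A, −0.0782 for ATP5F1D, 0.0851 for SULT4A1 and 0.0919 for ahr2. No other alternative changed the sign of any of the 106, and 22 of them kept their side of the threshold without the 3 fish. The families gave 1449 counts over the alternatives, 761 within 1.5 times of the main count. Depth limits scarce genes: the median SE was 0.59 in the lowest group by level and 0.10 in the highest.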
